A study of Mus musculus with 6 samples.

Results

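Transcripts of skeletal muscle contractile and fiber genes were examined in RNA-seq libraries of macrophages (MPs) sorted from injured mouse muscle. The genes were taken by symbol from a list of 41 contractile, fiber and excitation-contraction coupling genes, and 29 of the 41 were present among the 13008 genes of the deposited table. The other 12 genes, Myh2, Myh3, Myh7, Myh8, Myl2, Tnnc1, Tnni1, Actn2, Ckmt2, Cacna1s, Trdn and Sln, were not analysed here. Of the 29 genes, 24 encode proteins of the adult fiber, 2 (Actc1 and Myog) mark embryonic or regenerating fibers, and 3 (Ryr1, Casq1 and Atp2a1) handle calcium in excitation-contraction coupling. These names are those of the lists, and how far RNA of the adult genes came from regenerating fibers was not tested. The filter behind the table is not stated in the sources used here. Such a filter can depend on the level of a gene, so that a gene can be present because it was high in 1 group. Counts and medians over the 29 genes are therefore given as descriptions of these genes alone.

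The libraries came from 3 Control and 3 Cripto KO samples of C57BL/6J mice, which the labels give as male and aged 3 months. Cardiotoxin had been injected into the tibialis anterior, gastrocnemius and quadriceps muscles, and cells were taken on day 5 as GFP+/F4/80+/Ly6CLow MPs. The labels give the Control genotype as wild type, whereas the study describes its GFP-Control mice as Tg:LysMCre::R26mTmG. They give the Cripto KO genotype as Tg:LysMCre::Cripto-/-, in which Cre driven by the lysozyme M locus acts in the myeloid lineage and not in muscle fibers, and need not reach every MP. GFP is made only in cells whose R26mTmG reporter was recombined by Cre. The labels number the samples as replicates without naming the animals, so p-values measure the spread between these samples, which may in part be technical.

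A skeletal muscle fiber contracts when myosin of the thick filaments pulls on actin of the thin filaments, under the control of the troponins and tropomyosin. The filaments are anchored at Z-discs, calcium is let out of the sarcoplasmic reticulum through the ryanodine receptor, and the pump encoded by Atp2a1 returns it. Cardiotoxin destroys the fibers and spares the satellite cells, whose progeny switch on myogenin and then fetal isoforms such as cardiac actin while MPs take up the debris of the old fibers. MPs are not known to build sarcomeres.

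Each value is a read count plus 0.5, scaled to 1000000 reads of the library size after normalization, and whole reads were recovered from the values. Recovered reads summed to between 12688968 and 15659847 per library, and 3 reads corresponded to a value between 0.222 and 0.286. The MP markers Adgre1, which encodes F4/80, and Csf1r were high in every library, between 1065 and 1384 and between 1566 and 1815. Some other MP markers were lower, with Cd163 between 49.0 and 79.0 and Cx3cr1 between 59.6 and 123. Among other cell types, the 8 neutrophil markers summed to between 101 and 115, most of it Csf3r (up to 104), while S100a9, Ngp and Retnlg had 0 reads in all 6 libraries. Control replicates 1 and 2 stood apart from the rest. Xist was 171 in Control replicate 1 and at most 0.885 elsewhere, and the Y-linked gene Ddx3y was 0.184 there and between 49.1 and 62.3 elsewhere, which goes against the male label of that library. Lyz2, another MP marker, stood at 11066 in Control replicate 2. It was 25.2 and 21.4 in Control replicates 1 and 3, within the Cripto KO range of 21.2 to 28.3. Whether the Control libraries differ in Cre genotype was not tested. Tdgf1, the gene deleted in the Cripto KO mice, was not analysed here, so it gave no check of the genotypes.

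All 29 fiber genes lay far below Adgre1 and Csf1r. Their mean values over the 6 libraries ranged from 0.659 for Neb to 11.4 for Acta1, and the 29 genes together took 2263, 1304 and 1144 reads in Control replicates 1, 2 and 3 and 1999, 918 and 877 reads in the Cripto KO replicates. Per kilobase of exon, skeletal actin (Acta1, 7.43) was the highest, followed by Cox6a2 (6.41), the fast troponin I gene Tnni2 (6.18), Eno3 (5.16), the fast troponin C gene Tnnc2 (4.16) and the fast myosin light chain gene Mylpf (3.92). The giant genes Neb (0.0248) and Ttn were the lowest on this scale. In bulk samples of this kind, fewer fiber remnants or cells and less RNA in each of them cannot be told apart.

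Sequences before the RefSeq start site of 4 genes are shown because the results turn on them. Myh4 encodes the fast IIB myosin heavy chain and had the largest fitted difference between the groups, Acta1 was the highest gene per length, and Actc1 and Myog were the genes of regenerating fibers. The RefSeq promoter table (GRCm38.p6) matched 22 of the 29 genes. Capitals mark E-boxes (CANNTG, bound by myogenic factors such as myogenin) and CArG boxes (bound by serum response factor). Both motifs read the same on either strand, and neither was found to overlap the other here. The windows are chr11:67237562-67237811 (plus strand) for Myh4, chr8:123894776-123895025 (minus strand) for Acta1, chr2:114052888-114053125 (minus strand) for Actc1 and chr1:134289754-134289988 (plus strand) for Myog, all outside the exons of the gene itself. GENCODE places the genes at chr11:67238029-67260446, chr8:123891769-123894751, chr2:114047282-114053548 and chr1:134289989-134292548 of GRCm38, so that the Actc1 window lies inside the gene as GENCODE places it.
Myh4: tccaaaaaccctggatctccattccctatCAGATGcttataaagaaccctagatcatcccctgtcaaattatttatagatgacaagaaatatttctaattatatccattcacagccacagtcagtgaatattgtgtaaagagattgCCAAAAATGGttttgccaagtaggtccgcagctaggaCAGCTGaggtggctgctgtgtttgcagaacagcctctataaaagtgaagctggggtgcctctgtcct
Acta1: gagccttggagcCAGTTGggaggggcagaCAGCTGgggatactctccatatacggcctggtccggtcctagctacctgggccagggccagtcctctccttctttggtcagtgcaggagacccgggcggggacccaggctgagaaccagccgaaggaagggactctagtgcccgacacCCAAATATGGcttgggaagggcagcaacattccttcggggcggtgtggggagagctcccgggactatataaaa
Actc1: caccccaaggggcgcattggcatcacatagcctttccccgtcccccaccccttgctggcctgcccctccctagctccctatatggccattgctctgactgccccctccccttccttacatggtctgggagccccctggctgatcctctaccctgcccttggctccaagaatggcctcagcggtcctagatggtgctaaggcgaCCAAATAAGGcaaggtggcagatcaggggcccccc
Myog: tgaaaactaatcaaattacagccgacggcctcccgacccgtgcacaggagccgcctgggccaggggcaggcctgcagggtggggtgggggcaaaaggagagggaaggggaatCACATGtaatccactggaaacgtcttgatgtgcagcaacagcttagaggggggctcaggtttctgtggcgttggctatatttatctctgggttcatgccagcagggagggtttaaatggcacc
The Myh4 and Acta1 windows each hold 2 E-boxes and 1 CArG box, the Actc1 window holds 1 CArG box, and the Myog window holds 1 E-box. In the 250 bases before a start site, a CArG box occurred in 3 of the 22 matched genes, Myh4, Acta1 and Actc1, and in 1.47% of all 32851 promoters of the table. An E-box occurred in 19 of the 22 genes and in 66.2% of all promoters. A MEF2 box, searched in a strict form only, occurred in 1 gene, Ttn (as CTAAATTTAG), and in 0.508% of all promoters. Looser forms of the MEF2 site were not counted. Windows without the strict form, such as those of Myh4 and Myog, may therefore still hold a MEF2 site. A gene was counted if any of its promoters held the motif, whereas the background counts single promoters. Mb and Pvalb had more than 1 promoter, and Pvalb held an E-box only in its promoter 2. These matches are letters in a window and do not show binding.

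With all 6 libraries, none of the 29 genes passed the test between Control and Cripto KO MPs after adjustment over all 13008 genes, although most of them had higher fitted levels in Control. In the limma fit of log2 values, 0 of the 29 had an adjusted p-value under 0.05, against 17 of all genes (0.131%). The count was also 0 with edgeR and DESeq2 on the recovered reads and with voom weights. At an unadjusted p-value under 0.05 there were 12 of the 29 genes with limma (background 8.59%), of which 11 were higher in Control (background 4.6%) and 1, Myog, was higher in Cripto KO MPs (background 3.99%). This count was 7 with edgeR (background 8.47%), 7 with DESeq2 (background 5.83%) and 14 with a replicate block (background 7.13%). Of the 29 fold changes, 22 were above 0, that is higher in Control, as were 6839 of all 13008. The median log2 fold change was 0.89, against 0.01 over all genes. The genes share their libraries and many of them moved together across these, so they are not separate observations of a difference.

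The size of the difference also depended on single libraries. Without Control replicate 1, the library whose Xist value goes against its label, 2 of the 29 genes (Mybpc2 and Myh4) had an unadjusted p-value under 0.05 in the limma fit, against 10.5% of all genes. The median over the 29 genes fell to 0.32 there, and 6 genes changed sign. Without Cripto KO replicate 2 the count was also 2, against 7.63% of all genes, and without Cripto KO replicate 3 it was 5, against 5.7%. Without Control replicate 2 it was 10, against 7.97% of all genes, and without Control replicate 3 it was 10, against 6.8%. Without Cripto KO replicate 1 it was 14, against 7.59% of all genes. A fit without both Control replicate 1 and Cripto KO replicate 1 was the exception among the settings tried, since 2 of the 29 genes passed the adjusted threshold in it, against 83 of all genes (0.638%). These were Ckm (log2 fold change 2.10, adjusted p = 0.0274, limma) and Atp2a1 (2.46, adjusted p = 0.0242, limma), and the unadjusted p-value was under 0.05 for 13 of the 29 (background 12.4%). That fit was chosen after seeing the data, and it leaves out the library with the highest fiber values of each group, so the spread it uses was narrowed by the measure it tests.

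**Figure D1:**
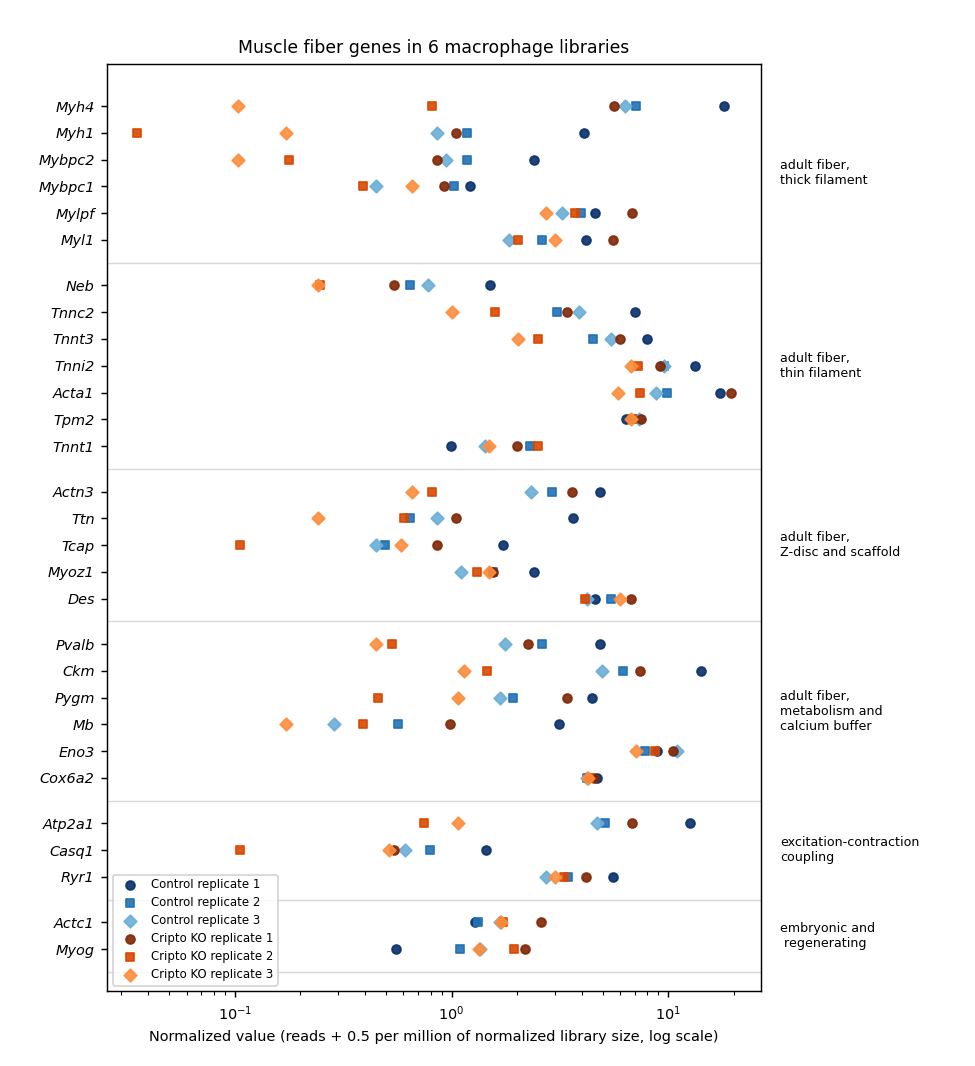
Normalized value (log scale) of each of the 29 muscle fiber genes in each of the 6 libraries, as 1 point per library, with genes grouped by role. Control replicate 1 was the highest library for 20 of the 29 genes, and Cripto KO replicate 1 lay above the other Cripto KO libraries for 28, while Tpm2 and Cox6a2 hardly varied.

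Libraries of the same group differed widely. Control replicate 1 had the highest value of the 6 libraries in 20 of the 29 genes, against 21.3% of all genes, and Cripto KO replicate 1 exceeded the other Cripto KO libraries in 28 of 29. The lowest value fell in Cripto KO replicate 2 or 3 for 21 genes. No share over all genes was taken for this count or for the count of 28. The highest library was at least 3-fold above the lowest in 19 of the 29 genes. This held for 9.48% of all genes, where reads are mostly more numerous. Among the 5029 genes with mean values in the range of the 29, it held for 14.4%. The median ratio of the highest to the lowest library was 3.97 over the 29 genes, 1.38 over all genes and 1.77 over the 5029. Groups were free of overlap in 6 of the 29 genes (background 14.5%). Of these, Mybpc2, Myh4, Neb, Tnni2 and Casq1 were higher in Control (background 8.02%) and Actc1 was higher in Cripto KO MPs (background 6.43%). A log2 fold change above 1 was found in 12 of the 29 genes, against 1.25% of all genes. That share was not taken among genes of like level.

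Control replicate 1 and Cripto KO replicate 1 also led their groups in the summed values of adult fiber and coupling genes. The 24 adult fiber genes summed to 146, 88.0 and 83.5 in Control replicates 1, 2 and 3, against 112, 58.2 and 53.8 in the Cripto KO replicates. The groups overlapped, since Cripto KO replicate 1 lay above Control replicates 2 and 3. The means were 106 ± 35.0 (SD, n = 3) and 74.5 ± 32.1 (SD, n = 3), a ratio of Control to Cripto KO of 1.42, which was 1.15 without Control replicate 1 and 1.89 without Cripto KO replicate 1. The 3 coupling genes summed to 19.6, 9.35 and 8.04 in Control and to 11.5, 4.14 and 4.58 in Cripto KO libraries, again with Cripto KO replicate 1 between the Control values. The 2 genes of regenerating fibers ran the other way, at 1.84, 2.42 and 3.02 in the Control and 4.76, 3.68 and 3.03 in the Cripto KO libraries, and their groups were separated only by the gap between 3.02 and 3.03.

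**Figure D2:**
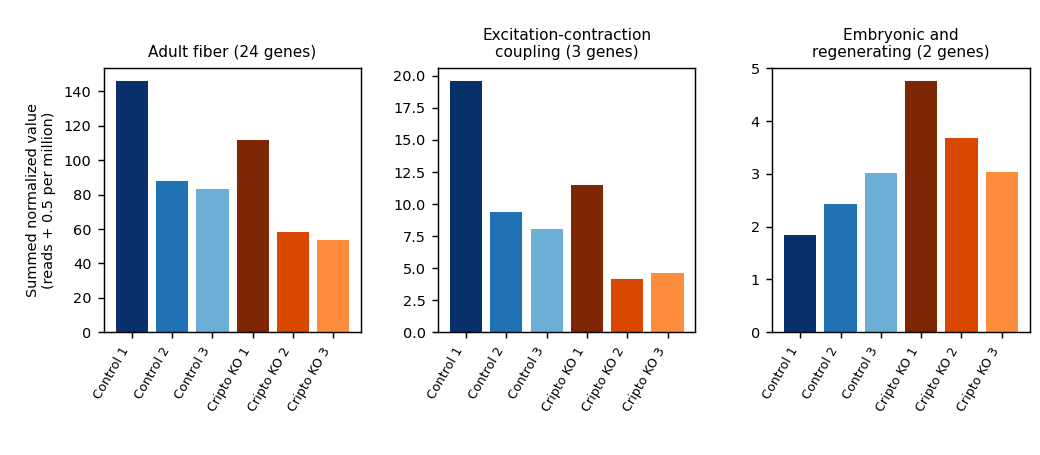
Summed normalized value of the adult fiber genes, the excitation-contraction coupling genes and the genes of embryonic or regenerating fibers, as 1 bar per library from 0. Control replicate 1 and Cripto KO replicate 1 were the highest of their groups for adult fiber and coupling genes, whereas Control replicate 1 was the lowest library for the embryonic and regenerating genes.

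Among the thick filament genes, the myosin heavy chains of fast fibers showed the widest spread. Myh4 had values of 18.1, 7.08 and 6.32 in Control replicates 1, 2 and 3 and of 5.62, 0.814 and 0.103 in the Cripto KO replicates, where the last of these stood for 1 read against 245 in Control replicate 1. The groups did not overlap, although Cripto KO replicate 1 came close to the lower Control values. The log2 fold change was 3.58 (standard error, SE, 1.17, unadjusted p = 0.0133, adjusted p = 0.493, limma), and it ranged from 2.12 to 5.01 when 1 library was left out. Myh1, the IIX heavy chain gene, was 4.09, 1.17 and 0.857 in the Control and 1.05, 0.0354 and 0.172 in the Cripto KO libraries, the last 2 of which stood for 0 and 2 reads. Its log2 fold change was 3.11 (SE 1.12, adjusted p = 0.512, limma), which ranged from 1.91 to 4.36 when 1 library was left out and was 1.02 with a pseudocount of 1. Reads of these genes are uncertain, because 30.4% of the 31-base words of Myh4 and 37.9% of those of Myh1 occur in other genes, the largest share of them in Myh1 (19.4%) and Myh2 (26.8%), respectively.

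Mybpc2, the fast myosin-binding protein C gene, was 2.39, 1.17 and 0.939 in the Control and 0.857, 0.177 and 0.103 in the Cripto KO MPs. It had the smallest unadjusted p of the 29 genes (0.0113, log2 fold change 2.46, SE 0.78, adjusted p = 0.470, limma), with groups that did not overlap and with 2 and 1 reads in Cripto KO replicates 2 and 3. The myosin light chain genes behaved differently from the heavy chains. Mylpf, the regulatory light chain of fast fibers, was 4.60, 3.97 and 3.22 in the Control and 6.76, 3.72 and 2.72 in the Cripto KO MPs. Myl1, the essential light chain, was 4.16, 2.61 and 1.84 in the Control and 5.56, 2.02 and 3.00 in the Cripto KO MPs. Both were highest in Cripto KO replicate 1 and overlapped between groups, with log2 fold changes of -0.07 and -0.25 that turned positive without that library (0.29 and 0.14). The slow isoform Mybpc1 was low in all libraries, between 0.389 and 1.21.

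In the thin filament, the genes differed among themselves, with Tnnc2 and Neb widely spread and Tpm2 nearly level. Acta1 was 17.3, 9.80 and 8.77 in the Control and 19.4, 7.40 and 5.82 in the Cripto KO MPs, so that the highest library was a Cripto KO library. Its log2 fold change of 0.28 (SE 0.42, adjusted p = 0.892, limma) was -0.02 without Control replicate 1. Tnni2 was 13.3, 9.57 and 9.51 in the Control and 9.18, 7.26 and 6.72 in the Cripto KO MPs. It was the most narrowly spread gene among those without overlap, with a log2 fold change of 0.48 (SE 0.18, adjusted p = 0.524, limma). Tnnt3, the fast troponin T gene, was 7.99, 4.50 and 5.43 in the Control and 6.00, 2.51 and 2.03 in the Cripto KO MPs, and overlapped through Cripto KO replicate 1.

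Tnnc2 was 7.03, 3.07 and 3.88 in the Control and 3.40, 1.59 and 0.999 in the Cripto KO MPs (log2 fold change 1.32, SE 0.46, adjusted p = 0.500, limma). Its reads are uncertain, because 74.0% of its exon bases overlap exons of Ube2c on the opposite strand, which had a mean value of 18.6, and the library kit does not mark strand. Neb, which encodes the ruler protein nebulin, was 1.51, 0.643 and 0.775 in the Control and 0.540, 0.248 and 0.241 in the Cripto KO MPs, without overlap and with 3 reads in each of the lower Cripto KO libraries. Tpm2, which encodes β-tropomyosin, was the steadiest thin filament gene, at 6.37, 6.85 and 7.30 in the Control and 7.46, 6.76 and 6.72 in the Cripto KO MPs. Its log2 fold change was -0.03 (SE 0.14, limma). The slow troponin T gene Tnnt1 varied between 0.994 and 2.51 and was lowest in Control replicate 1, the library with the highest sum of adult fiber genes.

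At the Z-disc, Actn3, the α-actinin gene of fast fibers, was 4.82, 2.91 and 2.33 in the Control and 3.59, 0.814 and 0.655 in the Cripto KO MPs. Cripto KO replicate 1 made the groups overlap, with a fitted log2 difference of 1.36 (SE 0.60, unadjusted p = 0.0484, adjusted p = 0.572, limma). Des, which encodes the intermediate filament protein desmin, was 4.60, 5.41 and 4.20 in the Control and 6.70, 4.14 and 5.96 in the Cripto KO MPs. Myoz1, which encodes a calcineurin-binding Z-disc protein, was 2.39, 1.55 and 1.10 in the Control and 1.56, 1.31 and 1.48 in the Cripto KO MPs. Neither gene separated the groups, with log2 fold changes of -0.22 and 0.15, and that of Myoz1 was -0.14 without Control replicate 1. Titin (Ttn) and telethonin (Tcap) were highest in Control replicate 1, at 3.64 and 1.73, and were at most 1.05 and 0.857 in every other library.

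Among the genes of energy metabolism and calcium buffering, Ckm, the muscle creatine kinase gene, was 14.1, 6.17 and 4.94 in the Control and 7.40, 1.45 and 1.14 in the Cripto KO MPs. The 2 lower Cripto KO libraries lay well below all Control libraries, but Cripto KO replicate 1 lay among them. The log2 fold change was 1.71 (SE 0.66, unadjusted p = 0.0292, adjusted p = 0.529, limma). Exons of the antisense gene A930016O22Rik overlap 15.5% of the exon bases of Ckm. Pvalb, which encodes the calcium buffer parvalbumin of fast fibers, was 4.82, 2.61 and 1.75 in the Control and 2.25, 0.531 and 0.448 in the Cripto KO MPs, with a log2 fold change of 1.79 (SE 0.62, adjusted p = 0.500, limma). Its groups, too, overlapped through Cripto KO replicate 1.

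Eno3 and Cox6a2 did not follow this order. Eno3, the muscle enolase gene, was 8.87, 7.76 and 11.0 in the Control and 10.5, 8.67 and 7.07 in the Cripto KO MPs. Cox6a2, a heart and muscle subunit of cytochrome c oxidase, was 4.67, 4.20 and 4.20 in the Control and 4.54, 4.28 and 4.24 in the Cripto KO MPs, and varied least of the 29 genes, by 1.11-fold between the highest and the lowest library. Exons of Cox6a2 overlap those of Itgad on the opposite strand over 10.3% of its bases. Pygm, the muscle glycogen phosphorylase gene, ranged from 0.460 to 4.45, and myoglobin (Mb) from 0.172 to 3.13, both with the highest value in Control replicate 1 and overlapping groups. Exons of the antisense gene Gm49540 overlap 27.6% of the exon bases of Mb.

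In excitation-contraction coupling, Atp2a1, which encodes the calcium pump SERCA1 of fast fibers, was 12.6, 5.11 and 4.69 in the Control and 6.83, 0.743 and 1.07 in the Cripto KO MPs. Its libraries were ordered much as those of Ckm, and its log2 fold change was 1.93 (SE 0.75, unadjusted p = 0.0290, adjusted p = 0.529, limma). Exons of Rabep2, which had a mean value of 19.7, overlap 21.9% of its exon bases on the opposite strand. Casq1, which encodes the calcium store protein calsequestrin, was 1.44, 0.795 and 0.612 in the Control and 0.540, 0.106 and 0.517 in the Cripto KO MPs, without overlap but with 1 read in Cripto KO replicate 2. Its log2 fold change was 1.52 (SE 0.71, unadjusted p = 0.0600, adjusted p = 0.603, limma). Leaving out Cripto KO replicate 2 gave 0.75, and a pseudocount of 1 gave 0.48. Ryr1, the calcium release channel gene, was 5.56, 3.44 and 2.73 in the Control and 4.16, 3.29 and 3.00 in the Cripto KO MPs. The fitted log2 difference of Ryr1, 0.12, was -0.17 without Control replicate 1.

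Both genes of embryonic and regenerating fibers had higher means in Cripto KO MPs, without reaching the adjusted threshold. Actc1, the cardiac actin gene that developing skeletal muscle also uses, was 1.29, 1.32 and 1.67 in the Control and 2.57, 1.73 and 1.69 in the Cripto KO MPs. The groups did not overlap, by a margin of less than 1 read, and the log2 fold change was -0.47 (SE 0.29, unadjusted p = 0.148, adjusted p = 0.708, limma). Myog, which encodes the differentiation factor myogenin, was 0.552, 1.10 and 1.35 in the Control and 2.19, 1.95 and 1.34 in the Cripto KO MPs, or 7, 14 and 16 reads against 34, 27 and 19. It overlapped narrowly between Control replicate 3 and Cripto KO replicate 3, with a log2 fold change of -0.94 (SE 0.41, unadjusted p = 0.0469, adjusted p = 0.568, limma) that stayed between -1.20 and -0.56 when 1 library was left out. Cripto KO replicate 1 was the highest library for both genes, whereas among the 24 adult fiber genes it was the highest library for 5 and Control replicate 1 for 17.

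**Figure D3:**
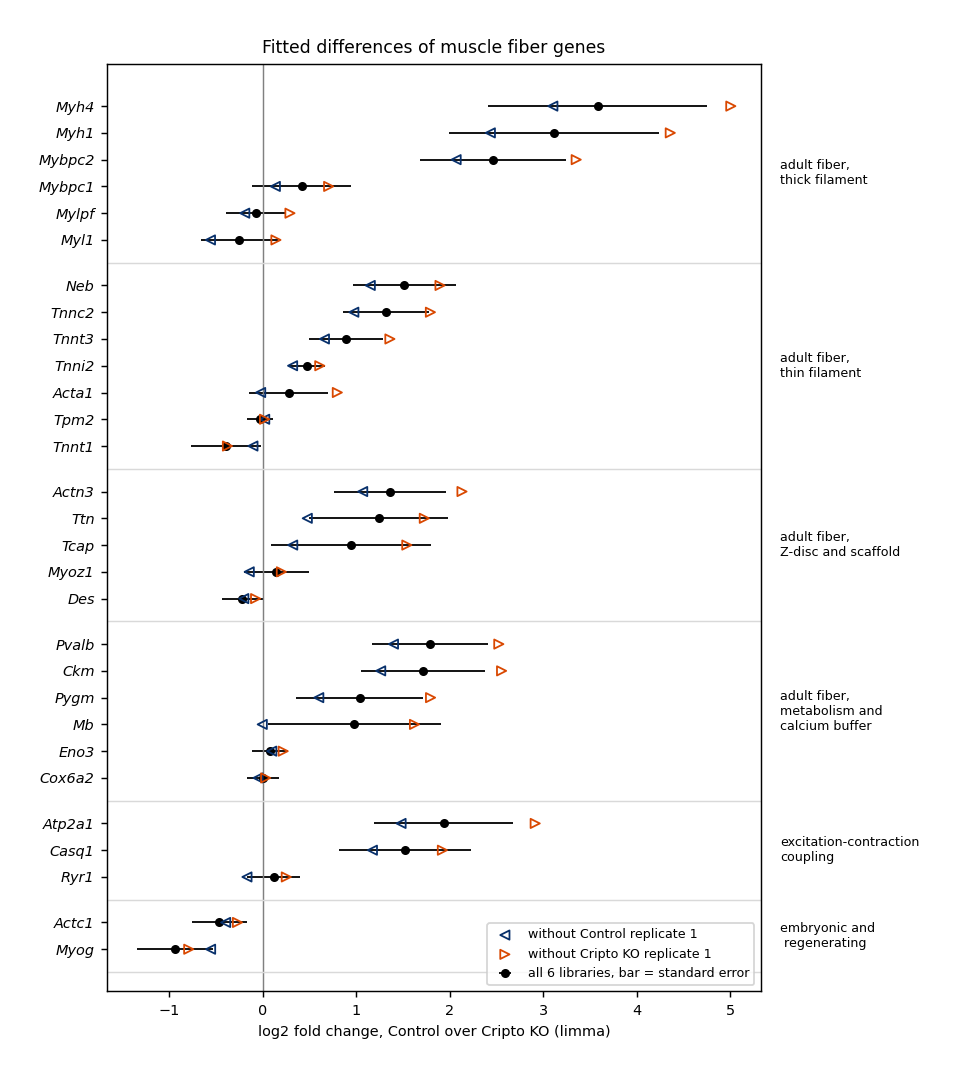
Fitted log2 fold change of Control over Cripto KO MPs for each gene, with the standard error from limma over all 6 libraries (black) and the value without Control replicate 1 (blue) or without Cripto KO replicate 1 (orange). The fast heavy chains, Mybpc2, Pvalb, Ckm and Atp2a1 lie at 1.7 or above with all libraries, Tpm2, Cox6a2, Eno3 and Mylpf lie near 0, and Actc1 and Myog lie below 0.

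Ratios of reads within a library do not depend on the normalization of libraries, and they show that some pairs of fiber genes did not change in step. All pairs given here were chosen after their values were seen, and the ratios are given as a description. Myh4 reads per Acta1 read were 1.05, 0.721 and 0.720 in Control replicates 1, 2 and 3, and 0.289, 0.106 and 0.0119 in the Cripto KO replicates. The highest Cripto KO ratio had an exact 95% binomial interval of 0.225 to 0.367, and the lowest Control ratio one of 0.530 to 0.974. The ratio of Cripto KO replicate 3 rests on 1 read of Myh4, with an interval of 0.000298 to 0.0682. Intervals of this kind cover counting error alone.

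Ckm reads per Acta1 read were 0.816, 0.628 and 0.561 in the Control and 0.380, 0.192 and 0.190 in the Cripto KO libraries, also without overlap. The pump and the kinase, in contrast, kept a similar ratio in most libraries. Atp2a1 reads per Ckm read were 0.895, 0.827 and 0.950 in the Control and 0.922, 0.500 and 0.938 in the Cripto KO libraries. Mylpf reads per Acta1 read were 0.265, 0.403 and 0.364 in the Control and 0.348, 0.500 and 0.464 in the Cripto KO libraries, with overlap. Actc1 reads per Acta1 read overlapped as well, at 0.0726, 0.132 and 0.187 in the Control and 0.131, 0.231 and 0.286 in the Cripto KO libraries. Between the 2 libraries with the most fiber reads, Cripto KO replicate 1 thus had more reads of Acta1 than Control replicate 1 (305 against 234) but fewer of Myh4 (88 against 245) and of Ckm (116 against 191). Other pairs were computed too. Atp2a1 per Acta1 and Myh4 per Ckm were higher in Control without overlap. Myl1 per Acta1 was higher in Cripto KO libraries, where the lowest ratio was 0.269 against at most 0.264 in Control. Tpm2 per Acta1 and Myog per Actc1 overlapped.

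**Figure D4:**
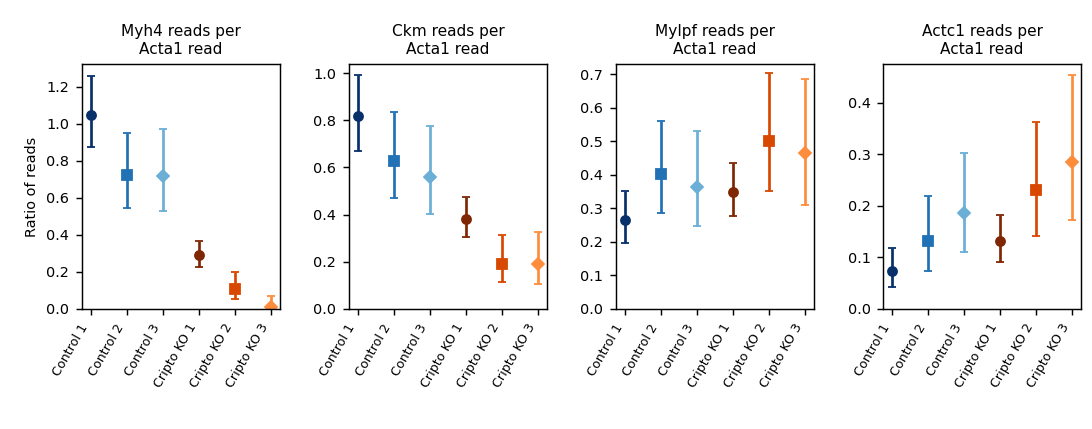
Reads of Myh4, Ckm, Mylpf and Actc1 per read of Acta1 in each library, with exact 95% binomial intervals for counting error. The 3 Control ratios lie above the 3 Cripto KO ratios for Myh4 and Ckm, and the groups overlap for Mylpf and Actc1.

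Across the 6 libraries, many adult genes followed the sum of the other adult genes on the log2 scale. Pearson's r with that sum was 0.97 for Ckm and 0.96 for each of Actn3, Tnnt3 and Atp2a1. It was lower for Mylpf (0.69), Myl1 (0.59) and Eno3 (0.43), near 0 for Des (0.05) and Tpm2 (-0.03), and below 0 for Actc1 (-0.11), Tnnt1 (-0.49) and Myog (-0.53). These values describe 6 points that share library preparation and depth, in which Control replicate 1 is an extreme, and they carry no test.

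Other genes that muscle uses were compared as a list apart. Of 25 other fiber genes, 0 had an adjusted p-value under 0.05 (limma) and 2 had an unadjusted one (background 8.59%), both with higher means in Cripto KO MPs, and the median log2 fold change was 0.03. The 3 with the most reads, Tpm3 (500 to 534), Fbxo32 (73.3 to 111) and Tpm1 (42.0 to 57.9), are also used by cells other than muscle fibers. Myl4, the essential light chain gene of embryonic muscle and atrium, was 0.699, 0.870 and 0.612 in the Control and 2.83, 2.02 and 1.21 in the Cripto KO MPs. Its groups did not overlap, and its log2 fold change was -1.40 (SE 0.39, unadjusted p = 0.00584, adjusted p = 0.416, limma). Tpm1 was the other gene with a low unadjusted p (log2 fold change -0.22, adjusted p = 0.541, limma).

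Of 13 myoblast and regulator genes, 0 had an adjusted p-value under 0.05 (limma) and 3 had an unadjusted one (background 8.59%). H19, a noncoding RNA of fetal and regenerating muscle, was 32.9, 35.8 and 28.2 in the Control and 52.0, 42.2 and 39.8 in the Cripto KO MPs, without overlap (log2 fold change -0.46, SE 0.12, unadjusted p = 0.00469, adjusted p = 0.407, limma). Rapsn, which encodes a protein of the neuromuscular junction, and Mef2a had slightly higher means in Control, with log2 fold changes of 0.36 and 0.15 and adjusted p-values of 0.533 and 0.540 (limma). The 3 genes with the most reads, Mef2d (139 to 187), Mef2a (143 to 166) and Mef2c (57.3 to 61.9), are transcription factor genes that MPs express too. The median over the 13 genes was -0.05, with 8 genes higher in Cripto KO MPs.

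Markers of other cells of the muscle were set beside these values. All 12 fibroblast markers had higher means in Cripto KO MPs, against 6169 of all 13008 genes with higher fitted levels there. Of the 12, 6 had an unadjusted p-value under 0.05 (background 3.99%, limma). Their summed value reached at most 879 in a Control library and was at least 953 in each Cripto KO library. It was lowest in Control replicate 1, at 805. Their median log2 fold change was -0.24, and 0 of 12 had an adjusted p-value under 0.05 (limma). Summed values of the 8 smooth muscle and pericyte markers ran from 31.4 to 46.9 and those of the 10 endothelial markers from 67.6 to 77.6, with overlapping groups. Pdgfra, a defining marker of fibroblasts, was low in all libraries, between 0.405 and 1.21. Fibroblast markers thus had their higher means in the same group as Actc1 and Myog, opposite to the median of the adult fiber genes. Their part in these results was not tested. Myl4 and H19 were higher in that group too, but they were named for their low unadjusted p-values. The lists they come from had medians near 0, with 14 of the 25 other fiber genes higher in Control, and Rapsn and Mef2a went the other way.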

How the data were processed

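RNA-seq libraries of 3 Control and 3 Cripto KO MP samples were analyzed, with groups taken from the labels. The authors prepared unstranded libraries, trimmed reads with Cutadapt 1.7.1 (reads under 30 bp were discarded), quantified them with RSEM 1.2.20 on the mouse transcriptome (GRCm38, release 91) and normalized them with limma and edgeR. The deposited signal of each gene is its reads plus 0.5, scaled to 1000000 reads of the library size after normalization. Dividing by the step of each sample gave whole reads for 100.0% of 78048 values, within 0.01 read. The count test on these reads (edgeR quasi-likelihood) called 17 genes. No value was 0, and a count of 3 reads was taken as the floor.

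Values were tested on the log2 scale without a pseudocount by limma (lmFit and eBayes with trend) over all 13008 genes, with Benjamini-Hochberg adjustment and a threshold of 0.05. Fold changes are Control over Cripto KO. The members and the gene lists were chosen with earlier results of these data known. Values are given per library for genes with an unadjusted p-value under 0.05, for the 3 genes with the most reads of each role, and for genes whose groups do not overlap. For the lists of other fiber genes and of myoblast and regulator genes, the 3 with the most reads are given as ranges. Those with an unadjusted p-value under 0.05 are given by fold change, with values per library for Myl4 and H19. Exon overlaps, lengths and shared words of 31 bases were taken from GENCODE (mouse release M21, GRCm38), and promoters from RefSeq. With 3 samples against 3, an exact permutation test cannot go below p = 0.1, so none was used. Intervals are exact Clopper-Pearson at 95%. Scripts were first tested on simulated counts.

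The alternatives tried were a pseudocount (0.5 or 1), a filter on mean values under 1, quantile normalization, scaling to the summed reads, voom weights, edgeR, DESeq2, a replicate block and leaving out each library. Leaving out both replicate 1 libraries together was added after seeing the data. Versions were R 4.3.3, limma 3.58.1, edgeR 4.0.16, DESeq2 1.42.0, Python 3.11.15, numpy 2.4.6, scipy 1.17.1, pandas 2.3.3 and matplotlib 3.10.9.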

Additional observations from a re-analysis of the deposited data

How the results depend on the processing

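With 1 exception, no alternative brought the adjusted p-value of any of the 29 fiber genes under 0.05. The exception was a fit without both replicate 1 libraries, which was chosen after seeing the data and called 2 of them, Ckm and Atp2a1, among 83 genes in all. It leaves out the library with the highest fiber values of each group. In it the median of embryonic and regenerating genes was -0.31, and signs turned for Cox6a2 (-0.0202), Mylpf (0.17), Myoz1 (-0.0916), Ryr1 (-0.0341) and Tpm2 (0.0695). The number of all genes called, 17, moved to 71 with DESeq2, 6 with quantile normalization and 9 with voom weights, and to between 5 and 31 when 1 library was left out. A fit with a replicate block called 2 genes, both among the 17, and had 14 fiber genes at an unadjusted p-value under 0.05 (7.13% of all genes). Residual correlations between libraries of the same number were -0.21, -0.0052 and -2.46e-05 for numbers 1, 2 and 3. Those between unlike numbers ran from -0.15 to 0.14. With 3 samples in each group, these values cannot decide whether the replicate numbers pair the samples. When 1 library was left out, the median log2 fold change ran from 0.32 to 1.45 for adult fiber genes, from -0.89 to -0.48 for embryonic and regenerating genes and from 0.75 to 1.92 for coupling genes. For coupling genes it was 0.48 with a pseudocount of 1, which shrinks differences of genes with few reads by construction, and for adult genes 0.44. Over the 19 adult genes with a mean value of at least 1, the median was 0.48. Signs turned for other settings too. Cox6a2 was -0.0095 with DESeq2, -0.0112 with edgeR, -0.0106 with voom weights and -0.0333 with values scaled to the summed reads, and Tpm2 was 0.0065 with quantile normalization. Leaving out 1 library gave -0.0507 to 0.0311 for Cox6a2, -0.0782 to 0.0207 for Tpm2, -0.0705 to 0.80 for Acta1, -0.0679 to 0.22 for Eno3, -0.59 to 0.14 for Myl1, -0.37 to 0.29 for Mylpf, -0.14 to 0.41 for Myoz1, -0.17 to 0.34 for Ryr1 and -0.0055 to 1.72 for Mb, which was 0.98 with all libraries. Of the alternatives for the 29 single genes, 430 kept their direction and side of the threshold, 26 reversed and 2 (Ckm and Atp2a1) passed it. Fiber genes had 51 to 963 reads over 6 libraries, so depth limits what can be seen of the low ones.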

Other observations

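Outside the muscle genes, the genes whose values most resembled the summed adult fiber value over the 6 libraries were found among 11937 genes with a mean value of at least 1. The 10 with the highest Pearson's r on the log2 scale were AW112010, C130026I21Rik, Ifi44, Chchd5, Ifi27l2a, Marcks, Stard3, Tlr4, Sass6 and Arl5a, with r from 0.98 for AW112010 to 0.96 for Arl5a. AW112010 was 28.9, 22.3 and 20.3 in Control replicates 1, 2 and 3 and 23.0, 17.4 and 15.8 in the Cripto KO replicates. Ifi44, an interferon-induced gene, was 11.4, 7.45 and 5.84 in the Control and 9.05, 4.00 and 4.38 in the Cripto KO MPs. In both genes the order of the libraries was close to that of the adult fiber genes, with replicate 1 the highest of each group, over a much narrower range than Myh4 or Ckm. With 6 libraries and this many genes, high values of r arise easily, and no test was made of them.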
